A study of Mus musculus with 5 samples.

Results

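The 9 mouse genes of the imprinted growth network, namely H19, Meg3, Dlk1, Peg3, Mest, Grb10, Plagl1, Ndn and Sgce, were followed across 5 microarrays of tumour cells carrying a doxycycline-inducible EWS/ATF1 fusion gene. The 9 genes were chosen by name, and a probe was assigned to a gene through the RefSeq accession that the scanner files give it. Of these, 8, among 20018 genes named on the array, had at least 1 probe, with 17 probes in all. No probe was matched to H19 by accession, and no value is given for it. A total of 7 members were above background on all 5 arrays, while the single Grb10 probe was above background on none.

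Total RNA came from tumour cell lines that were derived from murine soft tissue sarcomas, in mice with a mixed C57/BL6, 129 and ICR background. All groups carry the inducible fusion, controls included. The groups were a control, a low and a high doxycycline dose harvested at 3 h, and a control and a high dose harvested at 48 h, with 1 array for each. The sources used here do not state the doxycycline concentrations, whether controls received any, what promoter drives the transgene or from which tumour line each array came. A difference between arrays can therefore hold one between lines or cultures, and pairs of arrays were compared without a p-value.

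An imprinted gene is read mainly from the copy inherited from 1 parent, and most imprinted genes lie in domains where a methylated control region sets which copy is used. Dlk1, Peg3, Mest, Plagl1, Ndn and Sgce are read from the paternal copy, H19 and Meg3 from the maternal copy, and Grb10 from either depending on the tissue. Many of these genes are active in embryonic tissues and in precursor cells of muscle, fat and the neural crest, decline after birth and act on growth. The fusion joins part of EWS to the DNA-binding part of ATF1, a factor that binds the cAMP response element (CRE), and the study's title names Fos, a subunit of the AP-1 factor, as a gene the fusion activates. Expression was read as total RNA of both copies, so the parental origin of a transcript was not measured.

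The sequence before each start site was searched for the letters these factors bind. RefSeq promoter windows of build GRCm38.p6, from 250 bases before to 50 bases after a start, were available for 7 members with 11 windows. H19 and Sgce are not among them. Both strands were searched for TGACGTCA (the full CRE), for TGACG (its short form, which the full form contains), for TGANTCA (AP-1) and for TGCCGC, which the imprint-keeping factor ZFP57 binds when methylated. Of 32851 windows in the table, 1.79% held the full CRE, 20.8% TGACG, 7.81% TGANTCA and 11.6% TGCCGC. The 4 windows below are shown because Meg3, Dlk1 and Mest had the widest ranges over the arrays, and because Meg3 and Peg3 were the members with a full CRE. Capitals mark the CRE letters found in the first 3 (the short form in Dlk1) and TGCCGC, read on the opposite strand as GCGGCA, in the last. Each is printed 5′ to 3′ on the gene's own strand.
Meg3: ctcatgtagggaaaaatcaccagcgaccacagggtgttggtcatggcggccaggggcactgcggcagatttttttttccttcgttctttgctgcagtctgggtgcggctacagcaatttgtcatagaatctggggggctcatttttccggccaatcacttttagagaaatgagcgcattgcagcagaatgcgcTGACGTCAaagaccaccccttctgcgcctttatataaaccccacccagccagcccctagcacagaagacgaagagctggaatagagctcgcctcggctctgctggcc
Dlk1: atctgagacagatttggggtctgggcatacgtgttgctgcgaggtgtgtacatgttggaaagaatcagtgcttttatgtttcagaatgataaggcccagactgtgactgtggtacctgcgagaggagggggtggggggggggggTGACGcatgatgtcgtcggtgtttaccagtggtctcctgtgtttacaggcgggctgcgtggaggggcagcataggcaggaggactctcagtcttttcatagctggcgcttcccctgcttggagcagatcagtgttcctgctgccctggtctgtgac
Peg3: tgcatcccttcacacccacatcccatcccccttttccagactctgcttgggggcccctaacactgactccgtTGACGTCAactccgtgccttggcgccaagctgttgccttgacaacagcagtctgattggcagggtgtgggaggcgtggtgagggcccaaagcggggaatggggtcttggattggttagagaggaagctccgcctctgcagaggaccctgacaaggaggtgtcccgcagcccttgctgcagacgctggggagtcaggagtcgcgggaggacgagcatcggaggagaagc
Mest: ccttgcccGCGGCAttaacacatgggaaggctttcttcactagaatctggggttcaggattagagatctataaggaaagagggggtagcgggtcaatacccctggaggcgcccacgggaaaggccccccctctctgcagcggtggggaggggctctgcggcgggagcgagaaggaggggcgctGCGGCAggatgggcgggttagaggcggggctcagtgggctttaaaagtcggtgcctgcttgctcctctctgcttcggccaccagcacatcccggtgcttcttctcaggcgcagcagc

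The Meg3 window (chr12:109540746-109541045, plus strand) held the full CRE 57 bases before the start, and a TGCCGC on the opposite strand 190 bases before it. The other Meg3 window held none of the 4 motifs. The Peg3 window (chr7:6730370-6730669, minus strand) held the full CRE 178 bases before its start. The Dlk1 window (chr12:109452573-109452872, plus strand) held TGACG without the rest of the CRE, 106 bases before the start. The Mest window (chr6:30737800-30738099, plus strand) held TGCCGC 242 and 67 bases before the start. An overlapping Mest window held the same matches, and the third Mest window held none of the 4 motifs. Among the remaining members, TGCCGC lay 90 bases before the Plagl1 start and 24 bases after one Grb10 start, TGACG lay 160 bases before the other Grb10 start, and the Ndn window held none of the 4. No member's window held TGANTCA. These matches describe letters only, and binding was not measured.

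Signal was read in 1 colour and is given as the level, the log2 of the processed signal minus the 75th percentile of its array. A level of 0 is therefore as bright as the 75th percentile of all probes. A gene with several probes is represented by the brightest, and levels of different probes are not compared with each other. The 75th percentile itself lay between 420 and 725 intensity units, between 55.5% and 60.0% of probes were above background, and all 5 arrays were on 1 slide. Calls were made at 2-fold, that is at a log2 difference with a size of at least 1, where the gene was above background on both arrays. The scanner's error for a log2 difference was between 0.204 and 0.207 for the 7 measured members. It does not cover the spread between cultures, which a single array per group cannot show.

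**Figure D1:**
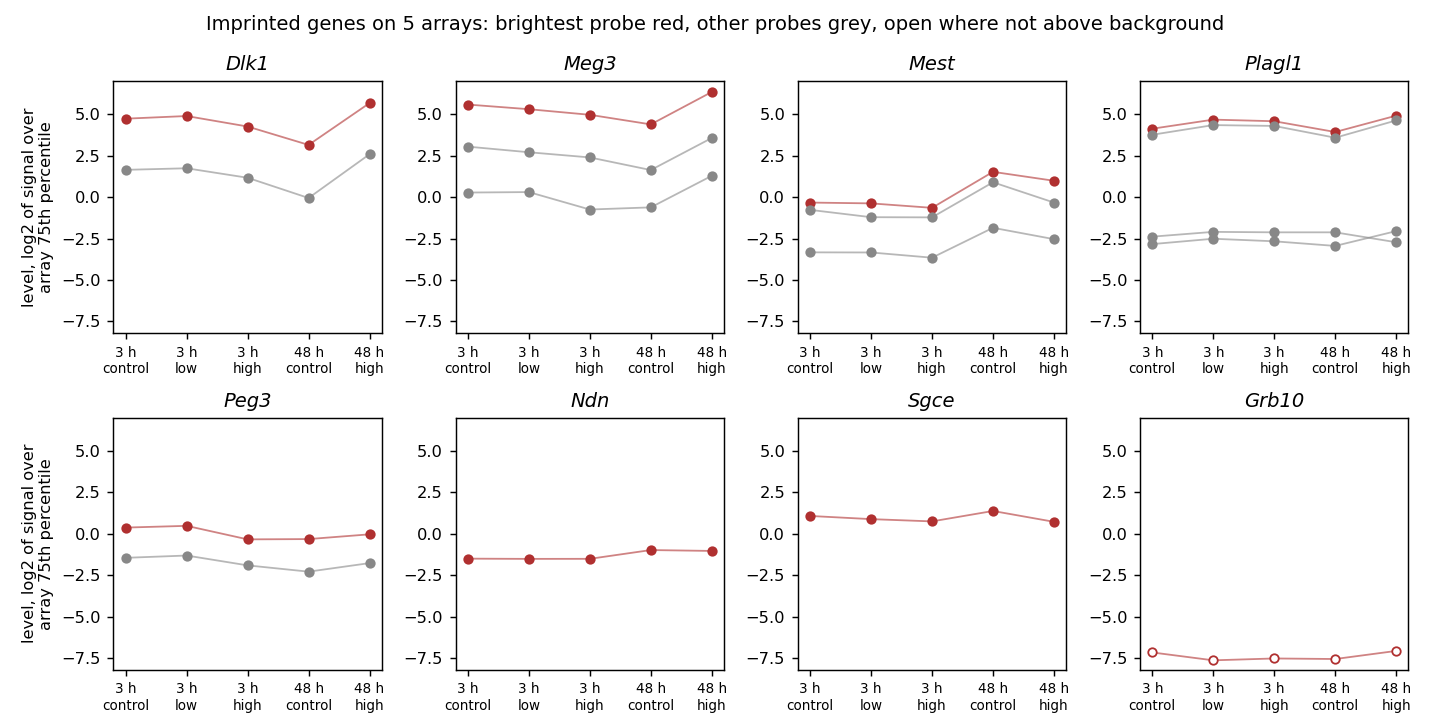
Level (log2 of signal over the array's 75th percentile) of each member's probes on the 5 arrays, with 1 point per probe and array. The brightest probe is red, other probes are grey and open points are not above background; lines join the points of 1 probe and do not stand for a time course. Dlk1 and Meg3 are lowest in the 48 h control and highest at the high dose at 48 h, Mest is highest in the 48 h control, and Grb10 stays at background.

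At 48 h the high dose array had more Dlk1 and Meg3 RNA than its control. Both belong to the domain on chromosome 12, where Dlk1 encodes a membrane-bound protein related to the Notch ligands and Meg3 is a long noncoding RNA read from the other parental copy. Dlk1 was 5.75-fold higher and Meg3 3.88-fold higher, and these 2 were the only members called among 7. No member was called lower. In this comparison 20.0% of all genes passed 2-fold, 9.91% higher and 10.1% lower, so a change of this size was common. The median log2 difference of the 7 members was 0.29, against 0.05 for all 13739 genes tested.

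The brightest Dlk1 probe (A_66_P117477) had a level of 4.73 in the 3 h control, 4.89 at the low dose, 4.26 at the high dose at 3 h, 3.15 in the 48 h control and 5.67 at the high dose at 48 h. The 3 arrays of 3 h lay together and the 48 h arrays lay on either side of them. Its log2 difference at 48 h was 2.52, which 3.44% of all genes tested reached in size. The second probe of the gene gave 2.64. Against the 3 h control in place of the 48 h control, the high dose array at 48 h was higher by 0.94 on the log2 scale, which is under 2-fold.

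Meg3 had levels of 5.58, 5.30, 4.96, 4.38 and 6.34 at its brightest probe (A_51_P455997), in the same order of arrays. The lowest and highest arrays were the same ones as for Dlk1. Its log2 difference at 48 h was 1.96, reached in size by 6.30% of genes, and its 3 probes gave between 1.90 and 1.96. Measured against the 3 h control the difference was 0.76, also under 2-fold. The call of both genes at 48 h thus rested on the 48 h control array, which held the lowest value of each.

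The control arrays of the 2 times also differed in Dlk1 and Meg3, and in Mest. Dlk1 was 2.99-fold lower and Meg3 2.29-fold lower in the 48 h control than in the 3 h control, with log2 differences of -1.58 and -1.20. Mest was 3.61-fold higher, with a log2 difference of 1.85. So 1 member of 7 was called higher and 2 lower, in a comparison where 3.87% of all genes were called, 2.50% higher and 1.36% lower. Differences of that size were reached by 0.663% of genes for Mest, 1.18% for Dlk1 and 2.54% for Meg3. The third Meg3 probe gave -0.89, under 2-fold, and all 3 were negative. This comparison shares the 48 h control array with the 48 h dose comparison, so the lower values of Dlk1 and Meg3 here and their higher values there come in part from 1 measurement. It separates control cultures that differ in harvest time and may differ in line, and these cannot be told apart.

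**Figure D2:**
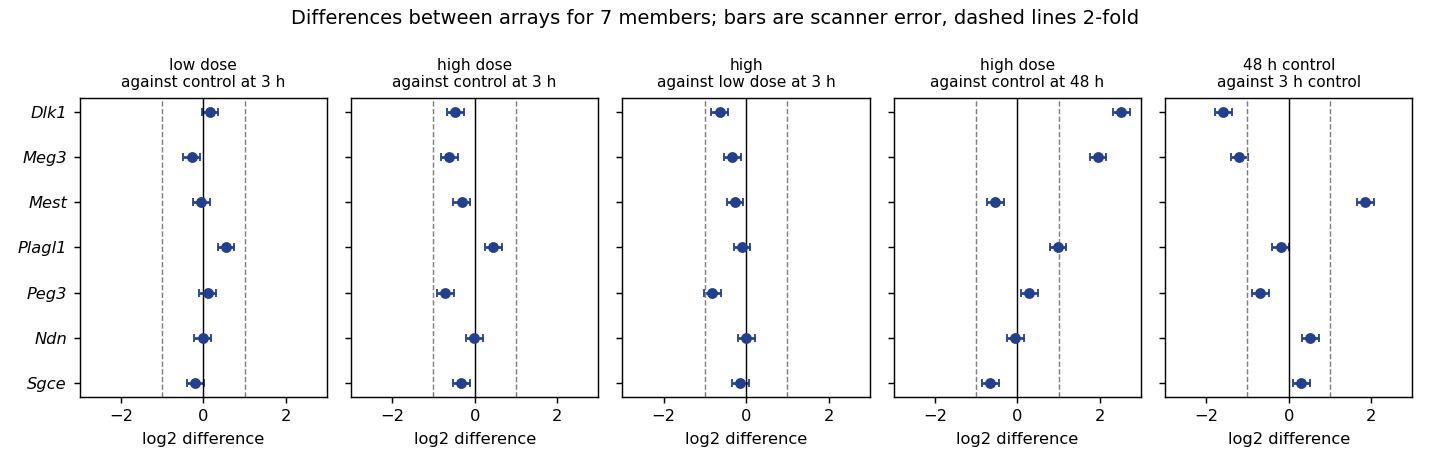
Log2 difference between arrays for the 7 measured members in 5 comparisons; points are the brightest probe, bars are the scanner error of the difference, and dashed lines mark 2-fold. At 3 h all points lie inside the dashed lines, at 48 h Dlk1 and Meg3 lie beyond 2-fold on the right, and between the controls Mest lies to the right and Dlk1 and Meg3 to the left.

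Markers of macrophages also differed between the arrays. Of 10 macrophage markers, 8, 9, 5, 5 and 9 were above background in the order of arrays given for Meg3, and the log2 of their summed level was 2.86, 2.80, 2.71, 2.94 and 5.53. Most of that sum came from Csf1r, a receptor gene, at 2.55, 2.52, 2.65, 2.89 and 5.30. Ctss, a lysosomal protease of these cells, had levels of -0.78, -0.87, -4.79, -4.67 and 1.43. Tyrobp, a signalling adaptor of myeloid cells, was not above background on the high dose array of 3 h or the 48 h control, and was above it on the others. Those 2 arrays had the fewest macrophage markers above background, and they were also the 2 lowest for Dlk1 and Meg3. In bulk RNA, more cells of a type and more RNA per cell cannot be told apart. The part of these markers in the Dlk1 and Meg3 differences was not tested.

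Other marker lists moved with the high dose array at 48 h as well. All 5 proliferation genes were called higher there, with a median log2 difference of 5.10, and 6 of 7 fibroblast markers were called lower, with a median of -2.89. The summed level of the proliferation list was -0.27, -0.55, -0.60, -0.07 and 4.78, and that of the fibroblast list 2.45, 2.51, 1.90, 3.24 and 0.33. Their part in the members' values was not tested. The cells are labelled only as tumour cells. Of 8 markers of neural crest and glia, 6 were above background on every array, and the list's summed level lay between 6.71 and 7.27. Ngfr, a receptor of neural crest cells, was at 4.35, 3.99, 4.02 and 4.25 on the first 4 arrays and at -2.20 at the high dose at 48 h. Melanocyte, skeletal muscle, adipocyte and endothelial lists had 2 to 3 of 5, 1 to 2 of 7, 2 to 4 of 5 and 2 to 4 of 5 markers above background.

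**Figure D3:**
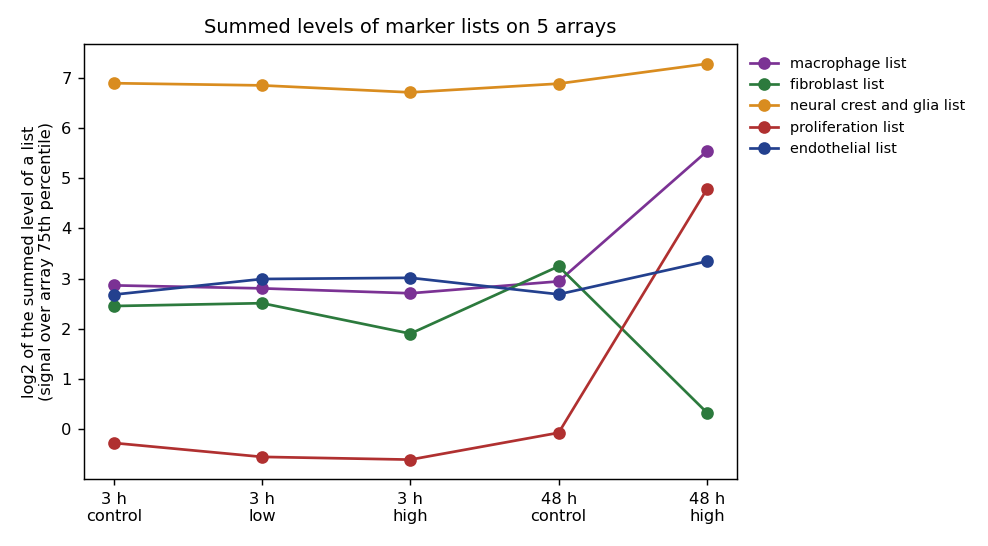
Log2 of the summed level of 5 marker lists (signal over the array's 75th percentile, 1 value per array); lines join the values of 1 list. The macrophage list stands at 5.53 and the proliferation list at 4.78 at the high dose at 48 h, above all their other values, and the fibroblast list has its lowest value, 0.33, on that array.

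The domain around Dlk1 and Meg3 was read gene by gene, since its transcripts share control regions. RefSeq lists 106 genes from Begain to Dio3, of which 61 are miRNA genes, and 8 of the 106 had a probe on this array. Mirg, a noncoding RNA that hosts miRNAs downstream of Meg3, had levels of 2.45, 2.56, 2.25, 1.22 and 3.30. Its log2 difference was 2.08 at 48 h and -1.23 between the controls, in the direction of Meg3 both times. The transcript 6430411K18Rik, which was picked out after its values were seen, had 1.48 at 48 h and -1.46 between the controls. Both are measured on the same arrays as Meg3, including the 48 h control.

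The protein-coding genes at the edges of the domain had other profiles. Begain, which encodes a synaptic protein, was at 4.65, 3.38, 4.90, 4.29 and 4.92, so its low value was at the low dose. Its log2 difference from the 3 h control was -1.27 there, and at 48 h the high dose differed from the 48 h control by 0.63. Dio3, which encodes an enzyme that inactivates thyroid hormone, was 0.38 lower on the log2 scale at the high dose at 48 h, and its antisense neighbour Dio3os was lower by 1.43. Rtl1, a retrotransposon-derived gene read from the paternal copy, was above background on no array, and Rian had no matched probe.

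**Figure D4:**
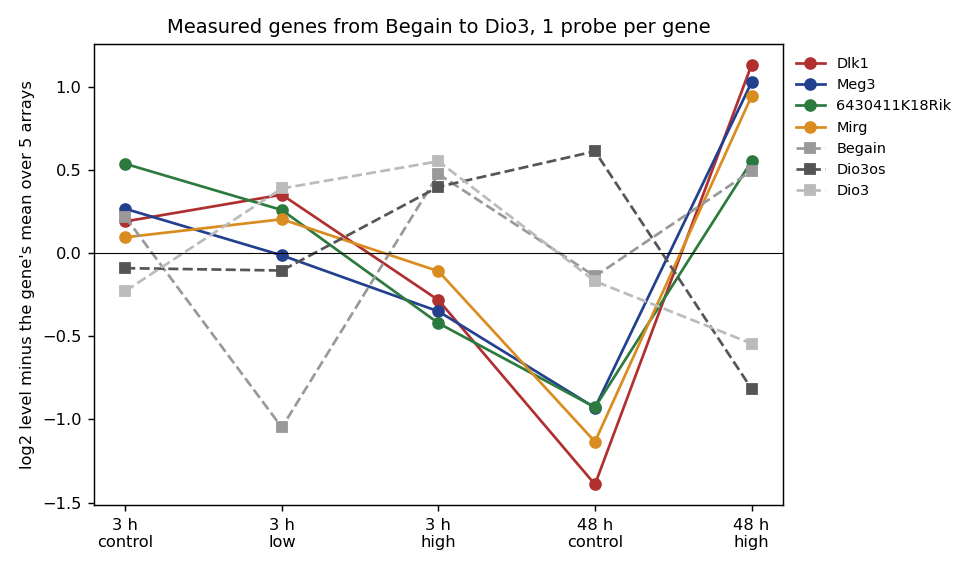
Level of 7 measured genes between Begain and Dio3, each minus its own mean over the 5 arrays (log2 scale, 1 probe per gene). Solid lines with circles are Dlk1, Meg3, 6430411K18Rik and Mirg, which all have their lowest value in the 48 h control; dashed lines with squares are Begain, Dio3os and Dio3, which do not.

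The profiles most like each widely ranging member were ranked by the largest distance between the 2 profiles on any array, after each was centred on its own mean over the 5 arrays. Among 13469 genes above background on all arrays, those nearest Dlk1 were Cartpt at 0.22, Mirg at 0.26 and Cthrc1 at 0.29. Those nearest Meg3 were Tagln3 at 0.11, Rps4l at 0.15 and H2-Aa at 0.18, with Mirg in rank 8 at 0.24. Dlk1 and Meg3 lay 0.46 apart, which put Meg3 in rank 20 for Dlk1 and Dlk1 in rank 121 for Meg3. Nearest to Mest were Fut4 at 0.16, Pgd at 0.28 and Pir at 0.28. Dlk1 and Mest were 2.68 apart, and Mest was in rank 13053 for Dlk1. These distances rest on 5 arrays that all the genes share and describe them only.

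Mest encodes an enzyme-like protein of the alpha/beta hydrolase family that marks growing mesoderm. Its brightest probe (A_55_P2090025) was at -0.33, -0.38 and -0.65 on the 3 h arrays in the order control, low and high, at 1.52 in the 48 h control and at 0.98 at the high dose at 48 h. Both 48 h arrays were above all 3 h arrays. Its range of 2.17, or 4.50-fold, ran from the high dose at 3 h to the 48 h control, and 6.90% of genes had a range at least as wide. The high dose differed from its control by -0.54 on the log2 scale at 48 h and by -0.32 at 3 h, neither past 2-fold.

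The 3 Mest probes gave one direction and unequal sizes. Between the controls they gave 1.48 to 1.85. At 48 h they gave -1.22 to -0.54, and the lowest came from the probe spotted 10 times, whose scanner error was 0.0647. That probe alone passed 2-fold, so Mest was lower at the high dose at 48 h by 1 probe and under 2-fold by 2. Against the 3 h control, the high dose array at 48 h had 1.31 more on the log2 scale at the brightest probe. The 48 h control also held the highest summed level of the fibroblast list, 3.24. The high dose array at 48 h held the lowest of that list, 0.33, with Mest at 0.98 there. The part of fibroblast markers in the Mest value was not tested.

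Copg2, a coat protein gene that overlaps Mest, was at 3.54, 3.44, 3.63, 3.73 and 3.58, a smaller spread than that of Mest. Cep41, further along, was at 0.06, -0.16, -0.12, 0.41 and 0.54. Klf14 and Cpa4 were above background on no array. None of the 2 measured genes around Mest was called in any of the 5 comparisons.

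Plagl1 encodes a zinc finger transcription factor that arrests the cell cycle and regulates other members of this network. Its brightest probe (A_55_P1961968) was at 4.12, 4.67, 4.58, 3.93 and 4.91. Both control arrays were below all 3 dosed arrays. At 48 h it was 1.98-fold higher at the high dose, just under the threshold, with a log2 difference of 0.99. At 3 h the low dose gave 0.55 and the high dose 0.45, and 6.78% and 17.3% of genes differed by as much. The low and high dose arrays differed from each other by -0.10.

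The 4 Plagl1 probes were on one side at 3 h and split at 48 h. At 3 h they gave 0.29 to 0.58 for the low dose and 0.17 to 0.53 for the high dose. At 48 h 3 probes gave positive values up to 1.04, and the dim probe A_55_P1961965 gave -0.60, from -2.13 in the control to -2.72. Whether the probes read different transcripts was not tested.

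Among 8 genes listed as Plagl1 targets, 6 were measured. At 48 h 1 was called higher and 1 lower, with a median log2 difference of -0.62. Rasgrf1, an exchange factor for Ras that is itself imprinted, was higher by 2.20. Cdkn1c, an inhibitor of cyclin-dependent kinases, was at -0.44, -0.84, -1.16, -0.81 and -2.05, a log2 difference of -1.25 at 48 h. Pparg, a regulator of fat cells, had -0.98 and was not called. At 3 h none of the 6 was called at either dose. Of the related factors, Plagl2 lay between -1.54 and -1.17 and Plag1 was above background on no array. Of the genes beside Plagl1, Phactr2 and Sf3b5 were measured and neither was called.

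Peg3 encodes a zinc finger protein that takes part in cell death and maternal behaviour. Its brightest probe (A_52_P235861) was at 0.37, 0.48, -0.34, -0.32 and -0.03. The 3 h control and low dose arrays lay above the others. The high dose at 3 h was lower by 0.71 on the log2 scale than the control and by 0.82 than the low dose. Among the members' brightest probes, these were the largest differences in those 2 comparisons. They were reached in size by 7.57% and 3.32% of genes, and neither passed 2-fold. At 48 h the difference was 0.29. The second probe gave -0.46, -0.59 and 0.52.

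Usp29, read from the same start region as Peg3 in the opposite direction, was at -3.46, -3.14 and -4.22 on the 3 h arrays. It was not above background in the 48 h control and was at -3.18 at the high dose, which is at least 4.59-fold higher. Between the doses at 3 h it was lower at the high dose by 1.08, and it was the only gene beside Peg3 that could be measured there. Zim1 was above background on the high dose array at 48 h alone, and Zfp264 had no matched probe.

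Ndn encodes necdin, a MAGE family protein that restrains cell division in neurons and muscle. Its probe (A_52_P451644) was at -1.50, -1.51, -1.51, -0.98 and -1.03. The low and the high dose each differed from the 3 h control by -0.01, far less than the scanner error. At 48 h the high dose differed from its control by -0.05. The 48 h control was higher than the 3 h control by 0.52, under 2-fold. Ndn had the narrowest range of the 7 measured members, 0.53.

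The Prader-Willi domain in which Ndn lies held 6 genes with a probe, all measured on every array. Mkrn3, a ring finger gene beside Ndn, was at -4.19, -3.72, -2.38, -4.74 and -2.62. By this brightest probe it was called higher at the high dose at both times, by 1.81 at 3 h and 2.11 at 48 h on the log2 scale. Its second probe was at -3.83, -4.20, -3.66, -4.37 and -3.51 in the same order of arrays. By that probe the high dose stayed under 2-fold from its control at both times. Atp10a, a lipid flippase gene, was lower by 1.09 at 48 h. Magel2, Peg12, Snrpn and Ube3a were called in none of the 5 comparisons. Among 5 MAGE family genes, Maged2 and Maged1 were called higher at 48 h, by 1.25 and 1.02, and none was called at 3 h.

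Sgce encodes epsilon-sarcoglycan, a membrane protein of the dystrophin-associated complex. Its probe (A_55_P1958160) was at 1.08, 0.88, 0.75, 1.38 and 0.72, so both high dose arrays were below their controls. The log2 differences were -0.33 at 3 h and -0.65 at 48 h, under 2-fold. Its range of 0.65 was equal to the median range of all genes, also 0.65. Of its partner genes in the complex, Sgcb, which encodes another sarcoglycan, differed by 0.02 at 3 h and 0.44 at 48 h on the log2 scale, and Sgcb, Sspn and Dag1 were not called at the high dose at either time.

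Genes beside Sgce on chromosome 6 differed among themselves. Asb4, a ubiquitin ligase subunit, was at 1.60, 1.15, 1.43, 1.36 and 3.55, and was higher by 2.19 at the high dose at 48 h. Ppp1r9a, a neuronal actin-binding protein, was at -1.98, -1.98, -1.82, -1.43 and -3.06, and was lower by 1.63. Peg10, the neighbour that shares its start region with Sgce, was above background on the 3 h arrays and on neither 48 h array. At 3 h none of the 6 measured neighbours was called at either dose.

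Grb10 encodes an adaptor that binds the insulin and insulin-like growth factor receptors and dampens their signal. Its single probe (A_55_P1955457) read -7.16, -7.63, -7.52, -7.55 and -7.07, not well above background on any array, so no difference is given. Its neighbours Ddc and Cobl were also above background on none. Of the same adaptor family, Grb14 was measured on all arrays and Grb7 on the high dose array at 48 h only.

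The receptors and adaptors that Grb10 acts on were measured, and are counted here together with its relative Grb14. At 48 h, of these 5 measured genes 1 was called higher and 3 lower, Grb14 among the lower. Irs2, an adaptor of the insulin receptor, was at 3.76, 4.34, 5.12, 3.71 and 4.85, with log2 differences of 1.36 at 3 h and 1.14 at 48 h. Irs1, its relative, was lower by 2.33 at 48 h and Insr by 1.31. Grb14 was lower by 1.05 at 3 h and by 1.95 at 48 h, and Grb7 was at least 6.80-fold higher at 48 h. Igf1r lay between 2.88 and 3.37 and was not called. Igf2, the growth factor that H19 is paired with, was above background on no array. Igf2r, the receptor that removes it, was at 3.24, 3.54, 3.54, 3.24 and 1.66, a log2 difference of -1.58 at 48 h. The other H19 neighbours, Ins2 and Mrpl23, were measured and not called.

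Genes of the Notch pathway, on which the Dlk1 protein acts, were called in both directions. At 48 h, of 5 measured, Notch3 was higher by 1.79 and Hey1, a target gene of the pathway, by 1.54. Hes1, another target gene, was lower by 1.94, and Jag1, a ligand, was at least 22.6-fold lower and not above background on the high dose array. Hey1 was also called higher at the low dose at 3 h, by 1.09. Between the doses at 3 h, Hes1 was lower at the high dose by 1.34. Notch1 and Notch2 were called in no comparison, and Dlk2 had no matched probe.

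At 3 h no member was called at either dose by its brightest probe. High dose against control called 3.31% of all genes, 1.86% higher and 1.44% lower. Low dose against control called 1.34%, 0.761% higher and 0.583% lower, and high against low dose called 2.16%, 1.28% higher and 0.885% lower. The third probe of Meg3 passed 2-fold where its brighter probes did not, with -1.02 for high dose against control and -1.05 for high against low dose. The median of the 7 members was -0.33 for high dose against control, with 6 of 7 below 0, and the median of all genes was -0.01. For low dose against control the members' median was -0.01 and that of all genes 0.01. Between the doses the members' median was -0.27, with 6 of 7 below 0, against -0.02. The 2 dose comparisons share the 3 h control array. With the 48 h control in its place Dlk1 was called higher and Mest lower at both doses, by 1.11 and -2.17 for the high dose and 1.74 and -1.90 for the low dose. Against that control array 5.04% of all genes were called at the high dose and 5.36% at the low dose.

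Other imprinted genes give the setting for the members. Of 51 listed, 49 had a probe. At 48 h, of 33 measured, 7 were called higher and 7 lower, where 9.91% of all genes were called higher and 10.1% lower. The median log2 difference of the 33 was -0.02, against 0.05 for all genes. Beside Usp29, whose bound is given above, Nap1l5 was at least 3.40-fold lower and Sfmbt2 at least 2.52-fold lower. The 3 highest were Rasgrf1 at 2.20, Asb4 at 2.19 and Slc38a4, an amino acid transporter, at 2.16. The 3 lowest were Dcn, a matrix proteoglycan of fibroblasts, at -2.50, Ppp1r9a at -1.63 and Igf2r at -1.58. At 3 h the high dose called 2 of 37 higher, Mkrn3 and Htr2a, a serotonin receptor gene, at 1.08, and 1 lower, Dcn at -1.19. The low dose called 1 lower, Begain, and none higher. Between the doses 2 of 38 were higher, Begain at 1.52 and Mkrn3 at 1.34, and Usp29 was lower. The Mkrn3 calls rested on its brightest probe, and its second probe stayed under 2-fold. Between the controls 1 of 35 was higher, Kcnq1ot1 at 1.41, and 3 were lower, namely Nnat at -2.15, Mirg and Slc38a4 at -1.11.

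**Figure D5:**
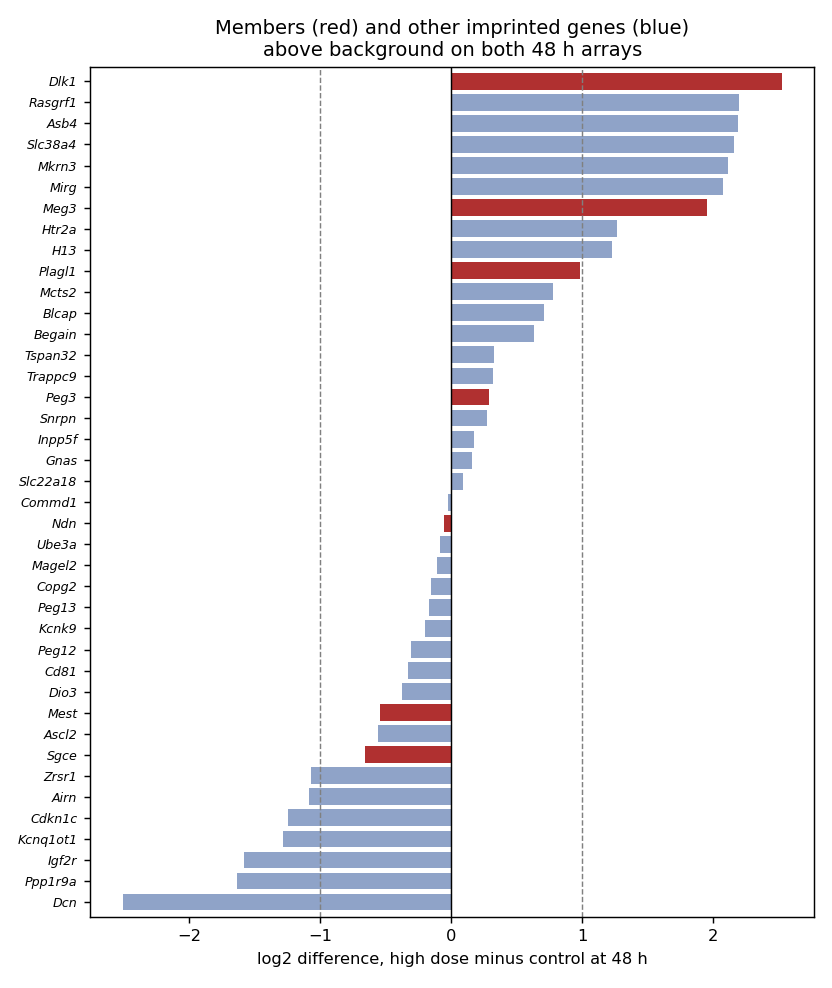
Log2 difference of the high dose array minus the control array at 48 h for the members (red) and the other imprinted genes (blue) above background on both; dashed lines mark 2-fold. Dlk1 at 2.52 stands at the top, Meg3 at 1.96 among the higher genes, Plagl1 at 0.99 just inside the line, and Mest and Sgce below 0.

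Genes that keep imprints were measured on all arrays. Of 6 such genes, Uhrf1, which brings the methyltransferase to replicating DNA, was higher by 4.96 at 48 h, and Dnmt1, that methyltransferase, by 1.31. Zfp57, Zfp445, Trim28 and Ctcf were not called. None of the 6 was called at 3 h or between the controls. Uhrf1 and Dnmt1 were higher on the array on which the proliferation list was also higher, and the part of proliferation in their values was not tested.

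A fit with time and high dose as additive terms over 4 arrays was the only test with a residual degree of freedom, and it had 1. By limma with Benjamini-Hochberg adjustment it called 0 of 14599 genes (0.00%) at an adjusted p of 0.05, with 498 genes at an unadjusted p under 0.05. None of the 7 members was among these. Plagl1, positive at both times, had the smallest p of the members, with an effect of 0.72 (SE 0.27), a limma p of 0.0579 and an adjusted p of 0.884. Dlk1 had 1.02 (SE 0.79) and Meg3 0.67 (SE 0.69), with adjusted p-values of 0.884 and 0.888 by limma. In this fit a difference present at one time only counts as error.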

How the data were processed

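The deposited scanner files hold linear spot intensities. Agilent Feature Extraction 10.7.3.1, named in the submitters' processing notes, subtracted the background and removed spatial trends on each array, per the file headers, and arrays were not normalised to each other. From these deposited intensities, log2 levels were computed as log2 of the processed signal minus the array's 75th percentile, leaving out control spots and the 111 to 146 outlier spots per array, and averaging the spots of a probe. No spot was saturated. For 100% of probes the deposited value table equalled the processed signal (tolerance 0.001 in log2), which makes it linear and uncentred; its column medians were 38.6, 32.7, 32.2, 38.1 and 24.1. Unversioned accessions were looked up in the GRCm38.p6 gene table of RefSeq, naming 26413 of 55681 probes; the files' own build is older, so no gene coordinates from that table are printed, and the promoter windows carry the GRCm38.p6 coordinates of RefSeq's promoter table. A probe counted as above background if a share of 0.5 or more of its spots was marked so. Where a gene passed on 1 array only, a bound was taken against the lowest passing signal of the dim array, or the probe's own if higher. The fit used limma 3.58.1 in R 4.3.3 on genes above background on at least 2 of 4 arrays, and was tested on simulated data. The number of arrays limits the precision. The error behind the p-values is how far the dose difference changed between the 2 times, pooled by limma with that of other genes. It is not a spread between replicate cultures, which these data do not hold.

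The text names all members with every probe, up to 3 genes per other list and comparison by size of difference, and the 3 nearest profiles of members ranging over at least 2-fold; others are named to complete a count, and some listed genes are not reported here. The members and lists were chosen with earlier results of these data known. Alternatives tried were median centring, quantile normalisation, normexp background correction, no filter on dim probes, the mean of all probes, the second brightest probe, the deposited value table, the other time's control array, and a fit without trend.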

Additional observations from a re-analysis of the deposited data

Results flagged for a closer look

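Meg3 and Dlk1 had differences of opposite sign at the 2 times. Meg3 at the high dose was lower than its control at 3 h, with a log2 difference of -0.62, and higher at 48 h, with 1.96. Dlk1 had -0.47 at 3 h and 2.52 at 48 h. The difference between the times was not tested, since each group holds 1 array, and neither 3 h value passed 2-fold.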

How the results depend on the processing

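Replacing the control array had the largest effect on the counts of called members. With the 48 h control in place of the 3 h control, 1 member was higher (Dlk1) and 1 lower (Mest) at the high dose at 3 h, and likewise 1 higher and 1 lower at the low dose, where none was called before; the share of all genes called was then 5.04% and 5.36%. With the 3 h control in place of the 48 h control, 1 member was higher at 48 h (Mest) in place of Dlk1 and Meg3. With the second brightest probe, 1 member was lower at 48 h, Mest at -1.22, and 3 were higher, Plagl1 at 1.04 joining Dlk1 and Meg3. Median centring, quantile normalisation, normexp correction (with the median spot signal, chosen after seeing the data), no filter on dim probes, the mean of all probes and the deposited value table left every count of called members as it was. Quantile normalisation moved the 48 h log2 differences to 1.55 for Meg3, 2.24 for Dlk1 and 0.77 for Plagl1. Median centring put the median of all genes at -0.13 for high dose against control at 3 h and -0.12 between the controls. The share of all genes called moved by over 1.5 times in the 3 h and control comparisons under normexp correction and without the filter, and in the 3 h dose against control comparisons with the other control array. In the additive fit no member was called under any alternative run; without the filter 4 of 20014 genes were called by limma, none a member, and Plagl1 had an unadjusted limma p of 0.0397 there and of 0.0466 after quantile normalisation. No paired analysis was possible because the labels give no replicate numbers to pair by and each group holds 1 array; the additive fit has time as a term. Grb10 could not be measured, since its signal was not well above background, and the spread between cultures is not known.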

Other observations

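Several other imprinted transcripts had wide ranges. Nnat, a small membrane protein gene of the developing brain, was at -3.06, -3.50 and -2.97 in the 3 h control, low and high dose arrays and at -5.21 in the 48 h control, and it was not above background at the high dose at 48 h. Kcnq1ot1, a noncoding RNA of the Cdkn1c domain, was at -3.02, -2.73, -2.36, -1.61 and -2.90 in that order of arrays, and Airn, the noncoding RNA that overlaps Igf2r, was lower by 1.08 on the log2 scale at the high dose at 48 h. Slc38a4 was at 0.23, 0.91, 0.30, -0.88 and 1.28, with its lowest value in the 48 h control and its highest at the high dose at 48 h. With 1 array per group these values have no replicate check.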
